A study of Mus musculus with 12 samples.

Results

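The 9 tumors that received cytokines, of 12 tumors in the series, were compared by the time since their last injection. Of these, 6 were collected 2 days after it and 3 were collected 8 days after it, and each tumor was placed by its label alone. All mice were C57BL/6 from Taconic and carried a flank tumor of B16F10 cells, a mouse melanoma line, that had grown for 6 days when it was first injected; the age and sex of the mice are not given in the sources used here. Each treated tumor was injected with interleukin-2 and interleukin-12, both fused to a collagen-binding protein that holds a cytokine in the tumor matrix.

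Early single-dose tumors (3) received 1 dose and were collected 2 days later. Late single-dose tumors (3) received 1 dose and were collected 8 days later. Repeat-dose tumors (3) had another dose on day 6 after their first, and collection followed 2 days later, which was also 8 days after the first. The early and late groups therefore differ in tumor age as well as in time since dosing, and the repeat-dose and late groups have the same age but differ in the number of doses. The 3 saline tumors were collected 2 days after injection and entered no test here; their levels are given as a description. The series text gives 4 animals for the repeat-dose cohort in one place and 3 in another, and 3 were analysed. Each tumor came from a separate mouse.

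Interleukin-2 drives the growth and killing capacity of activated T cells and natural killer (NK) cells through a receptor whose alpha chain, Il2ra, makes binding tight. Interleukin-12, made by dendritic cells and macrophages, acts on the same lymphocytes through Stat4 and leads them to release interferon-gamma, the product of Ifng. Interferons in turn switch on antiviral genes, the chemokines that draw T cells and the machinery that presents peptides on class I molecules. In tumors such as B16F10 these are the programs through which injected cytokines are known to act.

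RNA from fixed, paraffin-embedded whole tumors was counted on a panel of 750 immune and cancer gene probes and 20 housekeeping probes. Total gene counts of the treated tumors ran from 392596 to 1232726. A scaled count is the raw count divided by the tumor's housekeeping level, which was lower in repeat-dose tumors (919 ± 341, mean ± SD of the geometric mean over housekeeping probes, n = 3) than in early (1716 ± 410) or late single-dose tumors (1467 ± 221). In a whole tumor, fewer cells of a type and less RNA per cell cannot be told apart. Of a list of 9 melanocyte and tumor genes the panel holds 2, S100b and Mcam, and both lay above background in every treated tumor. Their summed scaled count was 2292 to 2678 in early, 2476 to 2772 in late and 2494 to 2691 in repeat-dose tumors. The sum covers opposite moves, since the repeat-dose minus early log2 difference was -0.74 for Mcam and 0.94 for S100b. It is therefore no measure of tumor cell content.

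The late group was not uniform. With housekeeping scaling, the only one used for this comparison, late single-dose tumor C had the highest scaled count of its group in 617 of 717 genes. Its median log2 difference from the other members of its group was 0.81. Tumor C also had the lowest housekeeping level of the group (1217 against 1638 in A and 1545 in B), a divisor that raises all its scaled counts. Its total gene count was the highest (989732 against 941352 and 612037). Over the interferon-gamma list its median difference was 1.59, and late tumor B stood lowest at -1.27. Differences from the late group move with tumor C, and the main ones are also given without it. Tumor C was singled out by these same values. Leaving it out raised the median equal-weight difference of all genes from 0.11 to 0.39. Calls and adjusted p without tumor C therefore describe late tumors A and B and are no test of recent dosing.

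The central question was which genes stood at another level 2 days after a dose than 8 days after one, with the early and repeat-dose groups given equal weight. No gene of the 717 tested passed the threshold of an adjusted p of 0.05 (0.0% of genes; lowest adjusted p = 0.448, edgeR quasi-likelihood test with Benjamini-Hochberg adjustment), so no gene was called tied to recent dosing. At an unadjusted p under 0.05 there were 31 genes with a higher level after a recent dose (4.32% of those tested) and 8 with a lower one (1.12%). The split between higher and lower moved with scaling: it was 50 and 43 with TMM, 46 and 62 with total-count and 10 and 6 with positive-control scaling, and 148 and 7 without late tumor C. With housekeeping scaling and all 9 tumors, 10 of the 31 (1.39% of genes tested) also had an unadjusted p under 0.05 and a positive difference in each recent group on its own, and 2 of the 8 (0.279%) did so with a negative difference. Of all 717 genes, 480 had a positive equal-weight difference. Both recent groups were set against the same late tumors. DESeq2 with the same housekeeping scaling called 5 genes, all higher after a recent dose: Il2ra, Gzma, Gzmb, Tnfrsf8 and Prf1. Of these, Tnfrsf8 was above background only in recently dosed tumors. With TMM or total-count scaling edgeR called Il2ra, Gzma and Prf1 as higher and limma on the authors' values called 0.

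The 12 genes that agreed in both recent groups were picked out after their values were seen. The 10 with higher levels were the interleukin-2 receptor chains Il2ra and Il2rb, the killing proteins Gzma, Gzmb and Prf1, the interferon-induced genes Zbp1, Isg20 and Bst2, and the lymphocyte genes Tnfrsf8 and Txk. The 2 with lower levels were Kdr and Cd7. In each of these 12 genes the 6 recently dosed tumors did not overlap the 3 late ones, which was true of 14 genes on the high side (1.95% of those tested) and 4 on the low side (0.558%).

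Il2ra, which encodes the alpha chain of the interleukin-2 receptor, had the widest gap. The early tumors A, B and C held scaled counts of 689, 1257 and 683, the repeat-dose tumors 1719, 665 and 818, and the late tumors 131, 60.9 and 270.0. The lowest recently dosed tumor therefore lay above the highest late tumor, and the late tumors reached down into the saline range of 18.3 to 85.5. The equal-weight log2 difference was 2.66 ± 0.55 (SE), made up of 2.51 ± 0.59 in the early and 2.80 ± 0.59 in the repeat-dose group, with an edgeR adjusted p of 0.448.

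Il2rb, the beta chain that interleukin-2 shares with interleukin-15, followed at a smaller distance. It had scaled counts of 1860, 3139 and 2650 in early tumors, 3549, 2662 and 2043 in repeat-dose tumors and 1331, 738 and 1730 in late tumors. Early tumor A and late tumor C were close neighbors across the gap. The log2 difference was 1.07 ± 0.34 (1.36 without late tumor C), and all late tumors lay above the saline maximum of 466.

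Gzma and Gzmb encode granzymes, the proteases that killer lymphocytes inject into target cells. Scaled counts of Gzma were 3941, 6543 and 5532 in early, 8751, 5449 and 2136 in repeat-dose and 998, 368 and 1503 in late tumors. Repeat-dose tumor C and late tumor C were the nearest across the gap, and every late tumor stood above the saline maximum of 146. The log2 difference of Gzma was 2.50 ± 0.58 (edgeR adjusted p = 0.448), and 2.98 without late tumor C.

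Scaled counts of Gzmb were 1403, 2080 and 1165 in early, 2672, 1076 and 984 in repeat-dose and 208, 125 and 807 in late tumors. Here late tumor C came close to the recently dosed tumors and the other late tumors did not. The log2 difference was 2.04 ± 0.65 with all 9 tumors and 3.23 ± 0.54 without late tumor C, where the edgeR adjusted p went from 0.740 to 0.0160. Over all 22 alternatives the adjusted p of Gzmb ran from 5.2e-05 to 1.00.

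Prf1 encodes perforin, which opens the target cell membrane for granzymes. Scaled counts were 594, 737 and 500.0 in early, 665, 438 and 358 in repeat-dose and 129, 77.8 and 290.0 in late tumors. The saline tumors held 18.9 to 36.1, so late tumors lay between saline and recently dosed tumors. Recent and late tumors differed by a log2 of 1.72 ± 0.43 (edgeR adjusted p = 0.448).

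Over the list of 8 cytotoxic effectors, which holds Gzma, Gzmb and Prf1, the genes had a median log2 difference of 0.35 against 0.11 over all genes tested. Higher at an unadjusted p under 0.05 were 3 of 8, against 4.32% of all genes. Positive were 5 of 8, against 480 of 717. The list's median was 0.15 in the early and 0.99 in the repeat-dose group, each against the late group, whereas all genes had medians of -0.09 and 0.41. Under the other scalings the list's equal-weight median ran from 0.10 to 0.31, its early median from 0.12 to 0.60 and its repeat-dose median from 0.46 to 0.94. With positive-control scaling the early median (0.60) was above the repeat-dose one (0.48). Without late tumor C the equal-weight median was 0.82, and that of all genes 0.39.

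Tnfrsf8 encodes CD30, a receptor of the tumor necrosis factor family that appears on activated lymphocytes. In tumors A, B and C it had scaled counts of 50.7, 92.5 and 44.7 in early, 64.2, 25.1 and 29.1 in repeat-dose and 11.3, 15.97 and 13.9 in late tumors. All late and all saline tumors were below the background limit, as were 2 of the repeat-dose tumors. The level was at least 1.94-fold higher in the 6 recently dosed tumors than the late background limit allows, with an edgeR adjusted p of 0.448.

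Txk, a kinase of the Tec family in T and NK cells, was counted near background, with scaled counts of 60.6, 96.5 and 54.7 in early, 91.9, 46.2 and 58.2 in repeat-dose and 31.1, 14.97 and 44.4 in late tumors. The gap between repeat-dose tumor B and late tumor C was narrow, and late tumor B was below background. This came to a log2 difference of 1.18 ± 0.43 (edgeR adjusted p = 0.740), and 1.56 without late tumor C.

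Among the interferon-induced genes Zbp1, a sensor of Z-form nucleic acids that can start cell death, had scaled counts of 6283, 7897 and 5974 in early and 6447, 7301 and 5680 in repeat-dose tumors. Its late tumors held 2429, 1257 and 5395. Only late tumor C of the 3 came within reach of the recently dosed ones. The equal-weight difference was 1.12 ± 0.42 (log2), and 1.84 ± 0.29 without that tumor.

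Isg20, an exonuclease that degrades viral RNA, had scaled counts of 1107, 1219 and 1068 in early, 808, 1041 and 995 in repeat-dose and 519, 322 and 718 in late tumors. The late tumors overlapped the saline range of 238 to 570.0. On the log2 scale the difference was 0.99 ± 0.26 (edgeR adjusted p = 0.496), and 1.30 without late tumor C.

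Bst2, or tetherin, which holds budding virus at the cell surface, had scaled counts of 12930, 13620 and 11440 in early, 13630, 15670 and 14140 in repeat-dose and 5973, 4537 and 10320 in late tumors. A log2 difference of 0.96 ± 0.27 resulted (edgeR adjusted p = 0.692), which was 1.37 without late tumor C. The recently dosed tumors spanned a narrow range and the late ones a wide one.

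**Figure D1:**
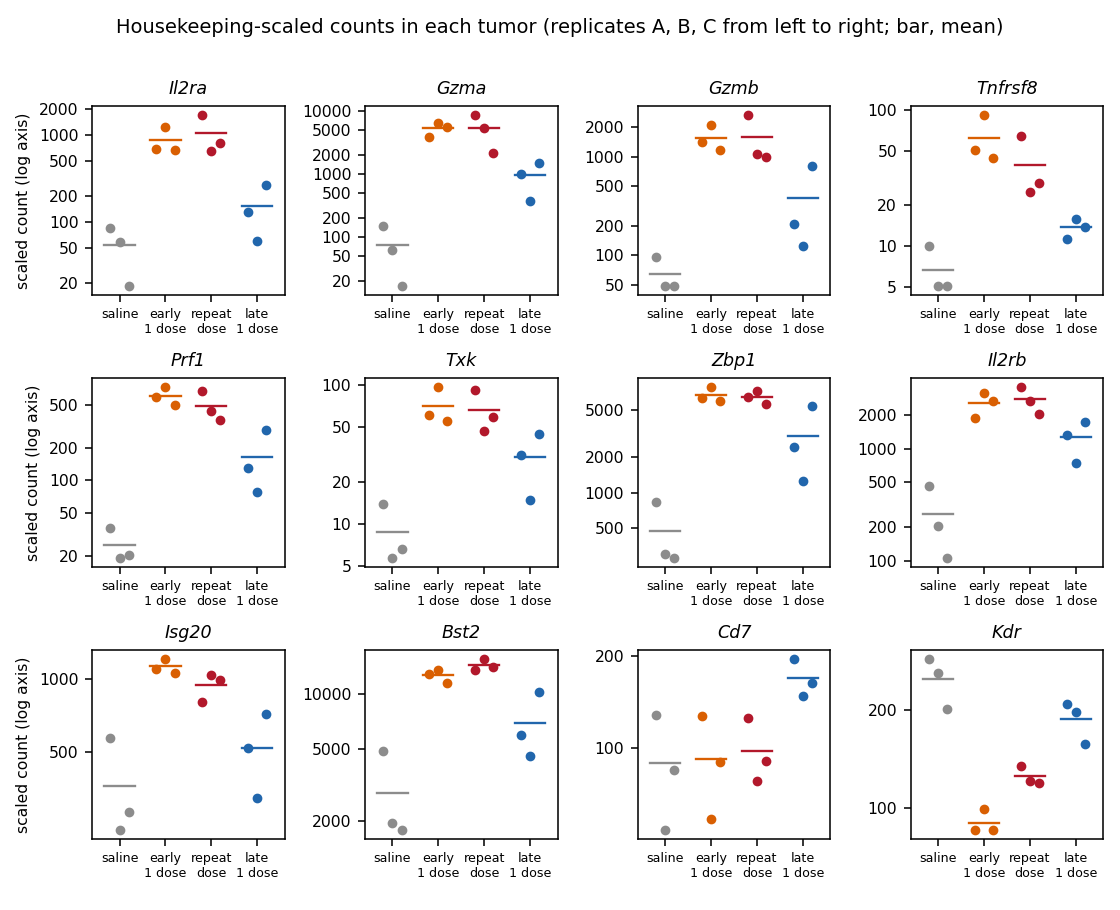
Scaled counts on a log axis of the 12 genes that agreed in both recently dosed groups, with 1 point per tumor (replicates A, B and C from left to right) and a bar at the group mean, n = 3 per group. In the first 10 panels the early and repeat-dose tumors lie above all late tumors, as for Il2ra (665 to 1719 against 60.9 to 270.0), and in Cd7 and Kdr they lie below.

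Kdr encodes the main receptor for vascular endothelial growth factor on blood vessel cells. It stood at scaled counts of 85.4, 99.0 and 85.5 in early, 134, 121 and 119 in repeat-dose and 208, 197 and 157 in late tumors. The saline tumors held 201 to 288, so the order from low to high was early, repeat-dose, late and saline, with an overlap between late and saline. The log2 difference was -0.82 ± 0.19 (edgeR adjusted p = 0.448), and -0.93 ± 0.18 without late tumor C with an edgeR adjusted p of 0.0221 (0.0157 to 1.00 over the 22 alternatives). Of the 16 endothelial and vessel genes 6 had a positive difference, against 480 of 717 over all genes. The list's median was -0.07 (-0.38 to -0.10 under the other scalings), and its summed scaled count of 9048 to 12640 in late tumors covered the early range of 9311 to 10920.

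Cd7, a surface protein of T and NK cells, had scaled counts of 127, 58.4 and 90.1 in early, 125, 77.9 and 90.2 in repeat-dose and 196, 148 and 164 in late tumors. Saline tumors held 53.7 to 128, a range like that of the recently dosed tumors. The log2 difference was -0.83 ± 0.28 (edgeR adjusted p = 0.740), and -0.86 without late tumor C.

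A further 6 genes, grouped after their values were seen, had no overlap between recent and late tumors without the agreement in p. Klrg1, an inhibitory receptor of mature NK and T cells, had 222 to 268 in early, 218 to 429 in repeat-dose and 104 to 214 in late tumors, with a log2 difference of 0.77 ± 0.32. Dusp6, a phosphatase that damps the MAP kinase pathway, had 4550 to 4778, 3821 to 4495 and 2777 to 3644 in the same order, with a log2 difference of 0.51 ± 0.19. Traf6 and Sigirr, which respectively relay and restrain Toll-like and interleukin-1 receptor signals, differed by 0.33 ± 0.16 and 0.30 ± 0.18, and both signs turned with total-count scaling. The integrin gene Itga6 and the death-receptor adaptor Fadd lay lower after a recent dose, at -0.37 ± 0.16 and -0.20 ± 0.17. None of these 6 passed the adjusted threshold with all 9 tumors.

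The promoters of genes from this group are shown because interferons act on DNA through a pair of short motifs: the interferon-gamma activated site (GAS, TTCNNNGAA, which reads the same on both strands) and the core of the interferon-stimulated response element (ISRE, GAAA and GAAA again after any 2 bases, searched on both strands). RefSeq promoter windows of build GRCm38.p6, each from 250 bases before to 50 bases after a transcript start, matched 8 of the 10 genes with higher levels. Zbp1 and Il2rb had no entry. The 4 shown were picked after their values were seen, since no gene met the rule for tied genes. Bst2 had the smallest rise of the 8 and was shown in place of Tnfrsf8, Prf1, Txk and Isg20. The windows of Tnfrsf8, Prf1 and Txk held neither motif, and an Isg20 window held a GAS. The windows shown thus hold motifs more often than those of the 8 genes. Capitals mark the motif letters.
Il2ra, chr2:11642542-11642841, plus strand: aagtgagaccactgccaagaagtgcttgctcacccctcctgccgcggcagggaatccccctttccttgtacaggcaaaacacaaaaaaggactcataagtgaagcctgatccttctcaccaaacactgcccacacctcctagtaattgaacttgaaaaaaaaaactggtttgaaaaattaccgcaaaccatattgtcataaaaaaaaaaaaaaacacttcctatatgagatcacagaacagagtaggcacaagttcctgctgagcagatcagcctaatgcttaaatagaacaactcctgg
Gzma, chr13:113100932-113101231, minus strand: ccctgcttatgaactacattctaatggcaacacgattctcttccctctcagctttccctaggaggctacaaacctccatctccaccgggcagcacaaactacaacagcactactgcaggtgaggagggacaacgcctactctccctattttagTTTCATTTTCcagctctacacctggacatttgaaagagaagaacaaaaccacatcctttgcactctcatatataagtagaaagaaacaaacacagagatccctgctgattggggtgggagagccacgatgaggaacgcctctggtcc
Gzmb, chr14:56262285-56262584, minus strand: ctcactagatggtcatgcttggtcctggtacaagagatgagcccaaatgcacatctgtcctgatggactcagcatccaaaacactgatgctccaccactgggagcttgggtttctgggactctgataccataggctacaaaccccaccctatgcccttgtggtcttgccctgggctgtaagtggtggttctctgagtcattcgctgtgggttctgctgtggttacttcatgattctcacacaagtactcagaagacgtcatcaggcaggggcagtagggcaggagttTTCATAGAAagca
Bst2, chr8:71537423-71537722, minus strand: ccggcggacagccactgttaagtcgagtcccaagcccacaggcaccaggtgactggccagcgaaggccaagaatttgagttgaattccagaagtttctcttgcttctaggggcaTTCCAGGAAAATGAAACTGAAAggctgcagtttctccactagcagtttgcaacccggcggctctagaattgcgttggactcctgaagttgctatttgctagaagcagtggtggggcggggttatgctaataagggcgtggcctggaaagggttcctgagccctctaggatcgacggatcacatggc

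Neither motif was found in the Il2ra window. The Gzma window held 1 ISRE core starting at -97 from the transcript start and the Gzmb window held 1 GAS starting at 37. The Bst2 window held a GAS at -136 that overlaps an ISRE core at -130, which overlaps another at -124. A GAS was found in 3 of the 8 genes (37.5%), in 13.8% of the 536 panel genes with an entry and in 9.55% of 27025 genes in the table. An ISRE core was found in 2 of 8 (25%), 9.33% and 3.99% of the same sets. These are letter matches in a short window and were not tested.

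The interferon-response lists had the highest equal-weight medians of the 27 gene lists. The type I interferon list (30 genes tested) had a median log2 difference of 0.66, against 0.11 over all genes. It had 7 members higher and 0 lower at an unadjusted p under 0.05, where all 717 genes had 31 and 8. Its median was 0.51 in the early group, where 25 of 30 members were positive, and 0.88 in the repeat-dose group, where 30 of 30 were. For all genes tested, 279 of 717 and 607 of 717 differences were positive in those groups. Under the other scalings the list's equal-weight median ran from 0.53 to 0.63, and without late tumor C it was 1.30. Besides Isg20, Bst2 and Zbp1 the list held Ifi35, an interferon-induced regulator of antiviral signals, with 3088 to 3958 in early, 3594 to 4413 in repeat-dose and 1237 to 3137 in late tumors.

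The interferon-gamma list (24 genes) had an equal-weight median of 0.62 (0.43 to 0.58 under the other scalings, 1.37 without late tumor C), 0.31 in the early and 0.89 in the repeat-dose group. At an unadjusted p under 0.05 there were 4 members higher and 0 lower, against 31 and 8 of all 717 genes. Psmb10, a subunit of the immunoproteasome that cuts peptides for class I molecules, differed by 0.87 ± 0.32. Irf1, the transcription factor that carries much of the interferon-gamma response, differed by 0.70 ± 0.38, and the T cell chemokines Cxcl9 and Cxcl10 by 0.48 ± 0.43 and 0.42 ± 0.43. Irf1 held 7873 to 9958 in early, 9207 to 13610 in repeat-dose and 4782, 3151 and 11150 in late tumors, so late tumor C lay among the recently dosed ones. The summed scaled count of the list was 33820 to 114800 in late tumors, a range that contains all early tumors (73630 to 96880).

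The class I presentation list (16 genes) had a median of 0.51 (0.29 to 0.47 under the other scalings, 0.98 without late tumor C). It had 4 members higher and 0 lower at an unadjusted p under 0.05, where all 717 genes had 31 and 8. Its members Tap1, Tap2, Tapbp, Psmb8, Psmb9, Psmb10 and Nlrc5 are also on the interferon-gamma list. H2-T23, a nonclassical class I molecule that NK cell receptors read, held 17360 to 25120 in early, 28170 to 32870 in repeat-dose and 8051, 3709 and 22110 in late tumors, a log2 difference of 1.17 ± 0.49. Class I genes are near copies of each other, so how their probes share RNA is uncertain. Regulatory T cell genes (10) had a median of 0.46 (0.18 to 0.43, and 0.70 without late tumor C), and Ctla4, an inhibitory receptor of activated and regulatory T cells, differed by 0.98 ± 0.42. Of the 11 genes of this list on the panel, Foxp3 did not pass the background filter and was not tested. With housekeeping scaling and all 9 tumors no member of either list passed the adjusted threshold in edgeR. Il2ra, which is on the regulatory T cell list, passed with TMM, total-count and positive-control scaling. Without late tumor C, which was singled out by its values, 10 of 16 class I and 3 of 10 regulatory T cell genes passed as higher, against 8.84% of all genes.

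Of 26 genes of the interleukin-2 and interleukin-12 pathway, 3 had a higher level after a recent dose at an unadjusted p under 0.05 and 0 a lower one. Over all genes tested these shares were 4.32% and 1.12%, and the list's median was 0.25. That median was 0.10 with TMM, 0.02 with total-count and 0.17 with positive-control scaling, and 0.76 without late tumor C. Besides Il2ra and Il2rb, Stat3, a transcription factor shared by many cytokine receptors, differed by 0.58 ± 0.23. Il12rb1, the shared chain of the interleukin-12 receptor, differed by 0.95 ± 0.45, with 662 to 891 in early, 986 to 1217 in repeat-dose and 289, 209 and 941 in late tumors. Il12rb2, its signalling chain, held 34.6 to 78.7 in early, 92.4 to 179 in repeat-dose and 36.9 to 143 in late tumors, and differed by 0.10 ± 0.46. Socs1, which shuts off cytokine receptors, differed by 0.86 ± 0.47. The panel's probes for Il2 and Il12b, the mouse cytokine genes, differed by -0.11 ± 0.57 and -0.50 ± 0.57.

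**Figure D2:**
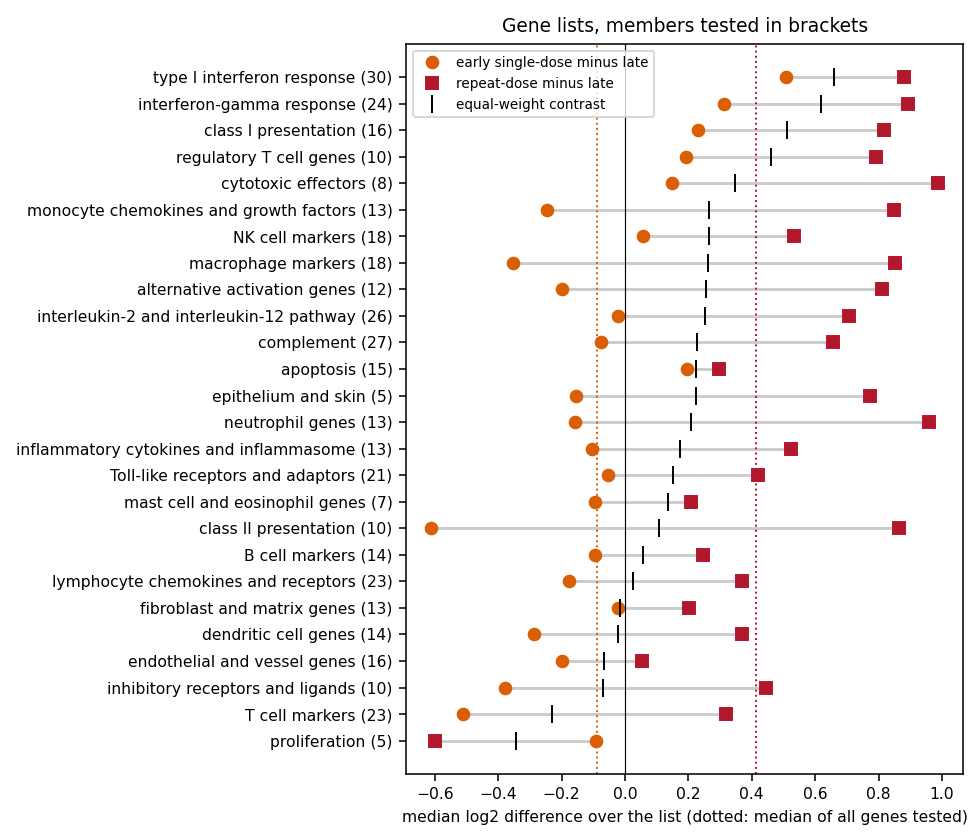
Median log2 difference from the late group over each gene list for early (circles) and repeat-dose tumors (squares), with the equal-weight median as a tick; the number of genes tested is in brackets and dotted lines give the medians of all 717 genes. The type I interferon list has both medians above those of all genes (0.51 and 0.88), while class II presentation has -0.61 and 0.87.

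NK cell markers had an equal-weight median of 0.27, with 16 of 18 differences positive against 480 of 717 over all genes. That median turned to -0.03 with total-count scaling. Without late tumor C it was 0.57. Their summed scaled counts were 2987 to 3173 in early, 3495 to 5740 in repeat-dose and 1815 to 3994 in late tumors, so the late range contained every early tumor. T cell markers had a median of -0.23 (-0.49 to -0.27 under the other scalings), with 9 of 23 positive, but 0.26 without late tumor C, and summed counts of 2831 to 3888, 4613 to 6167 and 2516 to 6335 in the same order. The part of these marker levels in the granzyme, perforin and receptor differences was not tested.

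The early and repeat-dose groups, both 2 days after an injection, differed from each other. Between them 8 genes passed the threshold, all higher in repeat-dose tumors (1.12% of 717), and 0 were lower. They were the T cell genes Cd8a and Cxcr6, the Cxcr6 ligand Cxcl16, the cytokine Ltb, and the myeloid genes Il1rn, Clec4n, Clec7a and Itgax. With housekeeping scaling the whole panel leaned this way: 613 of 717 differences were positive, with a median log2 of 0.49. At an unadjusted p under 0.05 in edgeR, 159 genes were higher and 8 lower. Total-count scaling gave 18 higher and 6 lower past the adjusted threshold. In all 8 genes that passed with housekeeping scaling the late tumors also stood above all early tumors, and the repeat-dose tumors overlapped the late ones. The early tumors were thus the low ones among the treated, but the genes were picked by low early levels against repeat-dose tumors. How many of all genes have every late tumor above every early one was not counted. Over all genes tested 279 of 717 early-minus-late differences were positive. Repeat-dose and late tumors share both a tumor age and a time since the first dose (8 days, against 2 in early tumors). The design cannot tell these apart.

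Cd8a encodes a chain of the CD8 coreceptor of killer T cells. The scaled counts were 60.6, 66.5 and 42.4 in early, 241, 238 and 306 in repeat-dose and 174, 137 and 309 in late tumors. The early tumors lay close to the saline tumors at 24.0 to 54.8. The repeat-minus-early log2 difference was 2.21 ± 0.36 (edgeR adjusted p = 0.0336).

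Cxcr6, a chemokine receptor of tissue T and NK cells, had scaled counts of 120.0, 179 and 141 in early, 790.2, 754 and 797 in repeat-dose and 541, 299 and 849 in late tumors. Cxcl16, its ligand, had 389, 492 and 469 in early, 2672, 1672 and 2183 in repeat-dose and 1568, 966 and 1845 in late tumors. The receptor and its ligand both stood high in both groups collected 8 days after the first dose. Their repeat-minus-early differences were 2.41 ± 0.36 and 2.27 ± 0.31 (edgeR adjusted p = 0.0336 for each).

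Ltb, which encodes lymphotoxin beta of lymphocytes, had scaled counts of 92.8, 121 and 102 in early, 477, 367 and 466 in repeat-dose and 314, 193 and 441 in late tumors. The difference between repeat-dose and early tumors was 2.05 ± 0.32 (edgeR adjusted p = 0.0336). Early tumors overlapped saline at 46.3 to 113.

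Il1rn encodes the interleukin-1 receptor antagonist, and its scaled counts were 761, 419 and 468 in early, 4361, 1802 and 4246 in repeat-dose and 1890, 1205 and 2784 in late tumors. It had the largest difference of the 8 genes, 2.66 ± 0.47 (edgeR adjusted p = 0.0371).

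Clec4n and Clec7a encode dectin-2 and dectin-1, receptors of myeloid cells for fungal sugars. Clec4n had 179, 161 and 102 in early, 1340, 451 and 829 in repeat-dose and 538, 398 and 855 in late tumors. Clec7a had 220.2, 179 and 222 in early, 1604, 599 and 1048 in repeat-dose and 629, 651 and 1317 in late tumors. Repeat-dose tumor B was the lowest of its group in both genes, below at least 1 late tumor. Their differences were 2.57 ± 0.46 and 2.39 ± 0.42 (edgeR adjusted p = 0.0371 for each).

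Itgax encodes CD11c, an integrin of dendritic cells and macrophages. It held 24.8, 26.0 and 32.4 in early, 112, 108 and 66.9 in repeat-dose and 82.9, 57.9 and 90.0 in late tumors. The difference was 1.79 ± 0.34 (edgeR adjusted p = 0.0405). All 8 differences lay above 0 under each scaling tried, but with positive-control scaling, in a fit of all 12 tumors or with the replicate letters as a block, 0 genes passed.

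**Figure D3:**
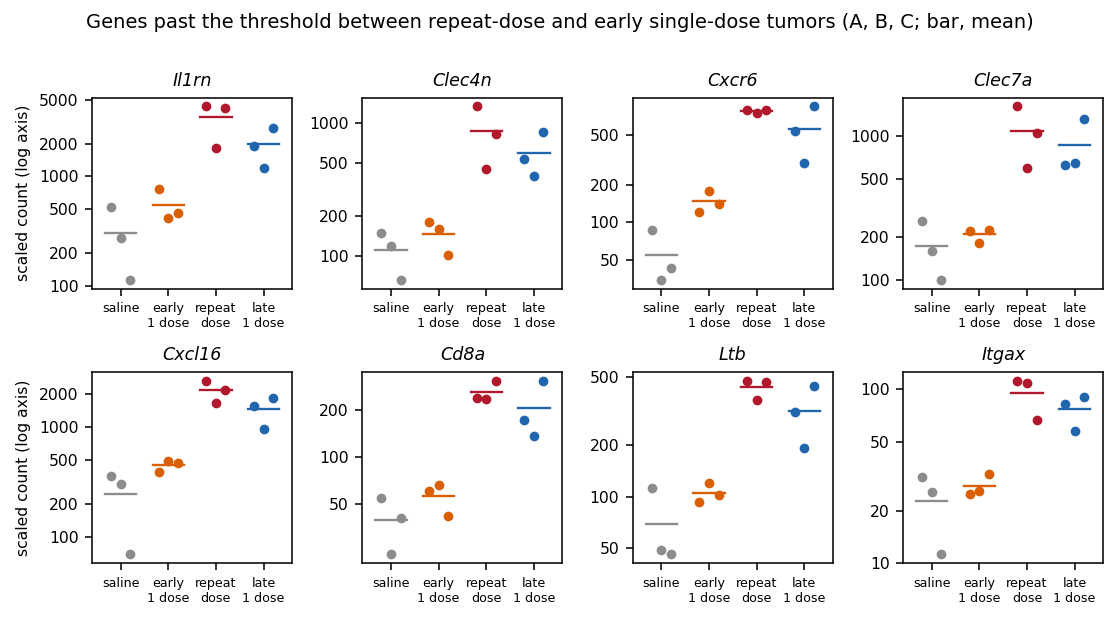
Scaled counts on a log axis of the 8 genes past the threshold between repeat-dose and early single-dose tumors, with 1 point per tumor and a bar at the group mean, n = 3 per group. Early tumors sit close to saline or just above it, as for Cd8a (42.4 to 66.5 against 24.0 to 54.8), and both groups collected 8 days after the first dose sit higher.

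Class II presentation and macrophage genes also differed in sign between the groups, without calls in edgeR with housekeeping scaling and all 9 tumors. The whole panel had the same signs, with medians against late tumors of -0.09 in early and 0.41 in repeat-dose tumors. A negative early and positive repeat-dose difference was found in 367 of 717 genes, 8 of 10 class II genes and 14 of 18 macrophage markers. The class II list (10 genes) had a median of -0.61 in early and 0.87 in repeat-dose tumors against late tumors, signs that held under each scaling tried. H2-Dma, which loads peptides onto class II molecules, held 2291 to 3891 in early, 5608 to 6542 in repeat-dose and 1990, 1097 and 5057 in late tumors, so late tumors A and B lay below every early tumor and late tumor C above them. Without late tumor C, 3 of the 10 class II genes were called higher after a recent dose by the equal-weight contrast in edgeR, against 8.84% of all genes. These were H2-Dma, H2-DMb2 and Ciita, and the list's equal-weight median went from 0.11 to 0.72. Macrophage markers (18) had medians of -0.35 and 0.85, and the first turned to 0.11 with positive-control scaling. Csf1r, the receptor for the macrophage growth factor, held 362 to 612 in early, 751 to 1464 in repeat-dose and 507 to 1171 in late tumors. DESeq2 with housekeeping scaling and all 9 tumors called Csf1r between repeat-dose and early tumors (DESeq2 adjusted p = 0.03). In edgeR with that scaling its adjusted p was 0.123. The macrophage list's summed scaled count was 15280 to 32090 in early, 14010 to 36680 in late and 25860 to 79420 in repeat-dose tumors.

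The early-against-late comparison taken alone had no gene past the threshold in edgeR (lowest adjusted p = 0.123). At an unadjusted p under 0.05 there were 20 genes with a higher level in early tumors (2.79%) and 41 with a lower one (5.72%). This split was 60 and 63 with TMM and 61 and 67 with total-count scaling, and it turned to 32 and 9 with positive-control scaling and to 88 and 21 without late tumor C. Past the adjusted threshold in edgeR there were 8 higher and 12 lower with TMM scaling, and 28 and 6 without late tumor C. Egr1, an immediate-early transcription factor, was picked out after its values were seen. It held 564, 659 and 1190 in early, 362, 294 and 257 in late and 373, 289 and 247 in repeat-dose tumors. Tcf7, which encodes the T cell factor TCF1 of naive and memory-like cells, held 626, 672 and 635 in early, 413, 425 and 452 in late and 373, 424 and 389.9 in repeat-dose tumors. Every early tumor lay above every late and repeat-dose tumor in both genes, with early-minus-late differences of 1.40 ± 0.32 and 0.58 ± 0.17 (edgeR adjusted p = 0.130 and 0.248).

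The repeat-against-late comparison had no gene past the threshold either (lowest edgeR adjusted p = 0.430). At an unadjusted p under 0.05 there were 66 genes with a higher level in repeat-dose tumors (9.21%) and 7 with a lower one (0.976%). This split was 45 and 42 with TMM and turned to 25 and 93 with total-count and 4 and 21 with positive-control scaling, and it was 257 and 10 without late tumor C. DESeq2 with housekeeping scaling called 3 as higher. Ifng held 717, 283 and 538 in repeat-dose tumors, 78.1, 40.9 and 190.1 in late tumors and 122, 193 and 113 in early tumors. The repeat-dose tumors were above all others, while late tumor C lay among the early ones. Its difference from late tumors was 2.32 ± 0.58 in the repeat-dose and 0.48 ± 0.56 in the early group, and the test between those groups gave an edgeR adjusted p of 0.123.

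Birc5, or survivin, a gene of dividing cells, ran the other way. It held 211, 269 and 262 in repeat-dose, 544, 662 and 348 in late and 481, 441 and 564 in early tumors, with saline at 755 to 798. Its repeat-minus-late difference was -1.07 ± 0.27 and its early-minus-late difference was -0.07 ± 0.26. Of 5 proliferation genes, 2 had a lower level after a recent dose at an unadjusted p under 0.05, against 1.12% of all genes. They were Birc5 and the transferrin receptor gene Tfrc (-0.48 ± 0.18). The list's median of -0.34 stayed negative under each scaling tried (-0.85 to -0.37) and without late tumor C (-0.52).

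**Figure D4:**
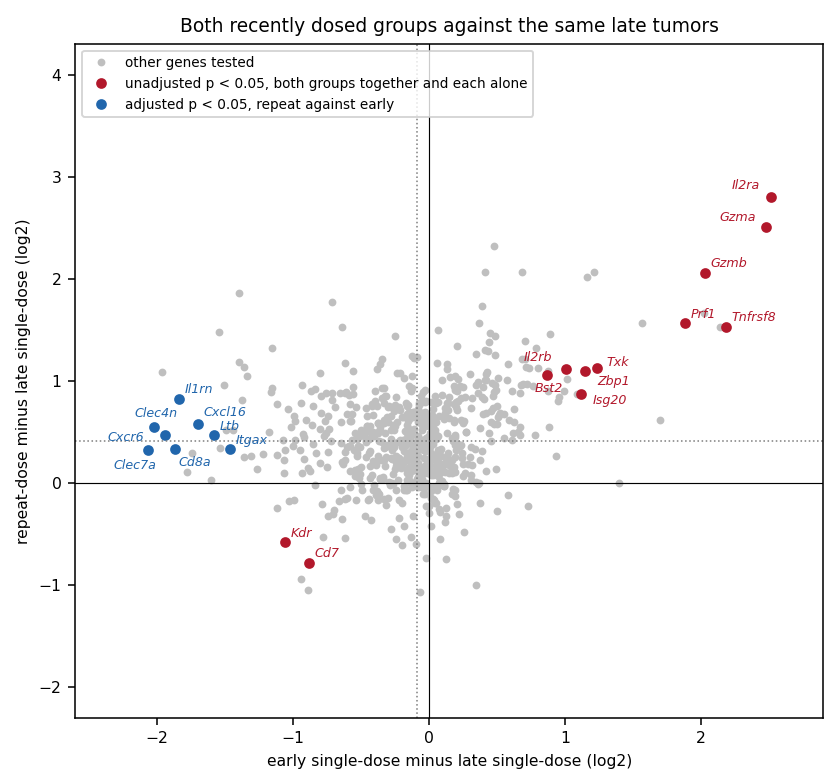
Log2 difference from the late single-dose tumors of every gene tested, for the early group on the x axis and the repeat-dose group on the y axis; dotted lines mark the medians of all genes (-0.09 and 0.41). Genes that agreed in both groups are red, with Il2ra at 2.51 and 2.80, and the 8 genes past the threshold between the recent groups are blue; the axes share the late tumors.

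Late tumor C set how many genes were called. Without it, edgeR called 63 of 713 genes as higher after a recent dose (8.84%) and 2 as lower (0.281%), and 61 met the rule for genes tied to recent dosing. Leaving out any of the other 8 tumors gave 0 calls. The 63 genes included 19 of 30 on the type I interferon list, 16 of 24 on the interferon-gamma list, 10 of 16 on the class I list and 3 of 8 cytotoxic effectors. The lists overlap: Tap1, Tap2, Tapbp, Psmb8, Psmb9, Psmb10 and Nlrc5 were called and count in both the interferon-gamma and class I lists. Il2ra (3.33 ± 0.57), Prf1 (2.40 ± 0.35), Il12rb1 (1.89 ± 0.22), Cd274, the inhibitory ligand PD-L1 (1.74 ± 0.29), and Irf1 (1.38 ± 0.25) were among the 63, each with an edgeR adjusted p of 0.0160 or, for Irf1, 0.0166. Ifng was called as well (2.18 ± 0.48, edgeR adjusted p = 0.0310). Over the 22 alternatives the highest adjusted p of each of these 6 genes was 0.999 or 1.00. The 2 lower genes were Kdr and Birc5.

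With 2 tumors left in the late group this count describes the recently dosed tumors against late tumors A and B alone. Since tumor C was singled out by its own values, the count is no test of recent dosing. In Cd274 the 3 late tumors held 2209, 1257 and 7841, against 3019 to 4583 in early and 7780 to 9751 in repeat-dose tumors. Late tumor C was thus above every early tumor and the other late tumors were below them. For the 8 genes called between repeat-dose and early tumors, the late tumors enter only through the estimate of spread.

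**Figure D5:**
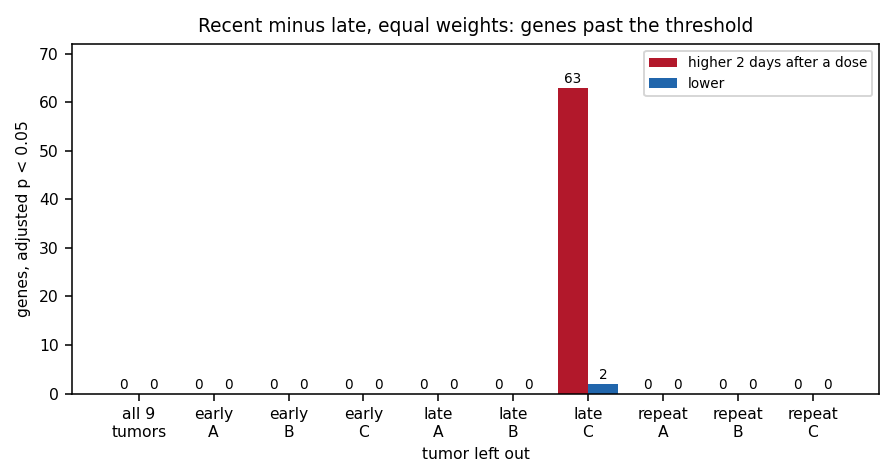
Number of genes past an adjusted p of 0.05 in the equal-weight contrast with all 9 treated tumors and with each tumor left out in turn, higher (red) and lower (blue) after a recent dose. The count is 0 in each case but that without late tumor C, where it is 63 and 2.

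The late tumors lay between saline and recently dosed tumors in part. Of the 10 genes with higher levels in both recent groups, all late tumors lay above all saline tumors in 7, and the ranges overlapped in 3. Over all 717 genes the late tumors all lay above saline in 310, and the ranges overlapped in 392. For the 8 genes called between repeat-dose and early tumors the early and saline ranges overlapped in 6, whereas the late tumors lay above saline in 8 of 8. The early and saline ranges overlapped in 326 of all 717 genes. The saline tumors were collected at the early time, so these ranges compare late tumors with younger controls.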

How the data were processed

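RNA was counted with the NanoString nCounter mouse PanCancer Immune panel, and the deposited raw counts per probe carry no scaling, per the file headers. The series table holds signal that the authors normalized in nSolver, per the series text (version not given in the sources used here). Its values equal the raw counts multiplied by a single factor for each sample (largest deviation 0.00882%). No replicate pair agreed within sampling noise (chi-square per degree of freedom 23.9 to 151), so each tumor was counted once. Symbols are those of the files, and RefSeq genes of GRCm38.p6 were found for 746 of 770 gene probes.

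Tests used edgeR 4.0.16 in R 4.3.3 (glmQLFit with robust estimation, glmQLFTest) on the raw counts of the 9 treated tumors in 1 fit of 3 groups. Library sizes were proportional to the geometric mean of 20 housekeeping probes. A gene was tested if its count exceeded the mean plus 2 SD of the 8 negative probes in at least 3 tumors; 717 of 750 passed and 33 were left out. Adjusted p is by Benjamini-Hochberg over all genes tested, with a threshold of 0.05. The equal-weight contrast gave each recent group a weight of 50% against the late group. A gene was tied to recent dosing if it passed and both recent groups had the same sign with an unadjusted p under 0.05. Values with ± are means with SD for counts and log2 differences with SE for contrasts. Fitted differences of genes below background in a whole group are replaced by lower bounds, computed per tumor from the background limits.

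Named genes were the 3 members of each of 27 lists with the smallest adjusted p, the 6 largest differences each way between recent groups, and genes fixed by name; parts of the rule that needed tied genes gave 0. Genes picked after their values were seen are named as such. Ltb and H2-DMb2 were also added after theirs were seen, Ltb for passing between the recent groups and H2-DMb2 for passing without late tumor C. The samples, lists and named genes were chosen with earlier results of these data known, so lists are described by counts and medians without a test. Alternatives were 4 scalings, DESeq2 1.42.0 with 2 kinds of size factors, limma 3.58.1 on log2(value + 1) of the authors' signal, 2 filters, counts less the mean of the negative probes, all 12 tumors in the fit, the 6 recent tumors as 1 group, a block for the replicate letter, and each treated tumor left out. Depth limits genes near background, where a count of few molecules adds counting error.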

Additional observations from a re-analysis of the deposited data

Results flagged for a closer look

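The groups collected 2 days after a dose differed from each other in 8 genes by a direct test in edgeR, although both entered the recent side of the contrast with equal weight. The repeat-dose minus early single-dose log2 difference was 2.66 for Il1rn, 2.57 for Clec4n, 2.41 for Cxcr6 and 2.39 for Clec7a. It was 2.27 for Cxcl16, 2.21 for Cd8a, 2.05 for Ltb and 1.79 for Itgax. In each of these genes, which the test itself picked out, all 3 repeat-dose tumors lay above all 3 early tumors. Over all genes tested 613 of 717 differences were positive, with a median of 0.49. Tumor age, number of doses and time since the first dose all differ between these groups and cannot be told apart.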

How the results depend on the processing

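The count of genes past the threshold in the equal-weight contrast moved most with late tumor C. Genes higher after a recent dose numbered 0 with all 9 tumors, 3 with TMM, 3 with total-count and 1 with positive-control scaling, 28 with DESeq2's own and 5 with its housekeeping size factors. Genes lower numbered 1 with total-count scaling and 9 with DESeq2's own size factors. Leaving out 1 tumor at a time gave 0 to 63 higher and 0 to 2 lower. Genes tied to recent dosing numbered 3, 3, 1, 27 and 5 in the first order of settings, and 0 to 61 with 1 tumor left out. Early against late gave 20, 31, 5, 51 and 19 in that order and 0 to 34 with 1 tumor left out, where late tumor B gave 5 and late tumor C gave 34 (28 higher in early tumors, 6 lower). Repeat against late gave 1 with TMM, 1 with total-count scaling, 10 and 3 with DESeq2, and 0 to 131 with 1 tumor left out. Repeat against early, 8 in the main setting, gave 22, 24, 0, 56 and 84 in that order, 0 with all 12 tumors in the fit, and 0 to 68 with 1 tumor left out: 60 without late tumor B, 68 without late tumor C, 11 without repeat-dose tumor B and 0 without early A, B or C, late A, or repeat-dose A or C. With total-count scaling 18 of these genes were higher and 6 lower in repeat-dose tumors, against 8 and 0. With the replicate letter as a block (replicate block) it gave 0. Same-letter tumors of different groups correlated from -0.656 to 0.594 over 9 pairs, and different-letter ones from -0.716 to 0.645 over 18 pairs. These are correlations of deviations from means of 3 tumors, so they cannot settle whether the letters pair samples.

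Medians of all genes shifted with scaling, from 0.49 to -0.54 between repeat-dose and early tumors with positive controls. Of 2486 values of single named genes under the alternatives, 2338 kept their side of the threshold, 77 lost a call, 71 gained one and 0 called values changed sign. Only the 8 repeat-against-early differences were called in the main setting, so all 77 lost calls fell on them. Itgax passed in 6 of 20 alternatives, and each of the other genes among the 8 in 12 of 21. Some 22 uncalled genes changed sign in at least 1 setting.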
